A study of Mus musculus with 6 samples.

Results

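The antiviral interferon-stimulated genes were examined as a list of 41 mouse genes, chosen by symbol from the known antiviral arm of the interferon response and without the guanylate-binding and immunity-related GTPase families. All 41 were among the 24223 genes of the count tables and all had reads, and 40 of them passed the filter on low counts together with 13607 genes in all. The exception was *Oas1g*, with 0 to 14 counts in any library. The list is called free of GTPases, but *Mx1* and *Mx2*, which it holds, belong to a family of dynamin-like GTPases.

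The RNA-Seq data compared Naive CD4+ T cells with Th17 and Th1 cells differentiated from them, with 2 libraries for each of the 3 cell types. Naive cells came from the pooled lymph nodes and spleens of C57BL/6 mice aged 1-2 months, by a magnetic kit for CD4+CD62L+ cells, and were sequenced without culture. Th1 and Th17 cells were derived from such cells by 5 days of culture with antibodies against CD3 and CD28 (or beads carrying them) and a blocking antibody against IL-4. The Th1 culture also received IL-12 and IL-2. The Th17 culture received TGF-β, IL-6, IL-1β and IL-23 together with a blocking antibody against IFN-γ, so that the antibody and the Th17 cytokines cannot be told apart. The study calls the 2 libraries of a cell type independent biological replicates. The number of animals behind a library was not given in the sources used here.

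Total counts were 64826757 and 18608805 for Naive, 59973041 and 17742158 for Th17, and 69080017 and 18347752 for Th1, with replicate 1 first, so that replicate 1 was the deeper library of every cell type. In the same order, values below are given in CPM, the counts of a gene relative to the library's total after TMM scaling (the trimmed mean of M-values). Of 6 T cell marker genes, 5 had a row in the tables (*Trac* was not analysed here), and their summed level was 1772 to 2823 CPM in all 6 libraries. The summed level of 5 Th1 markers was 884 and 904 CPM in Th1 and at most 121 CPM elsewhere, and that of 5 Th17 markers was 1412 and 1877 CPM in Th17 and at most 10.5 CPM elsewhere. The summed naive T cell markers overlapped between the 3 cell types, at 2340 to 3957 CPM.

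Interferons are cytokines that put cells into an antiviral state. Type I interferons (IFN-α and IFN-β) signal through JAK1 and TYK2 to factors, STAT2 and IRF9 among them, that act on the interferon-stimulated response element (ISRE). IFN-γ, the main effector cytokine of Th1 cells, signals through JAK1 and JAK2 and acts on the gamma-activated sequence (GAS). The products of the genes examined here detect viral RNA and DNA, block translation, entry or replication of viruses, or attach and remove the ubiquitin-like protein ISG15.

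Promoters of the genes were read from a RefSeq table on GRCm38.p6 that holds 250 bases before to 50 after each start. They were read because ISRE and GAS elements can lie in that window. Of the 41 genes, 31 were matched by symbol, and *Oas1b*, *Oas2*, *Mx1*, *Mx2*, *Dhx58*, *Zbp1*, *Usp18*, *Parp9*, *Parp14* and *Rtp4* were not. An ISRE core, searched as GAAANNGAAA on both strands, was present for 14 of the 31 genes (45.2%), compared with 3.99% of the 27025 genes of the table. A GAS core, searched as TTCNNNGAA on both strands, was present for 8 of 31 (25.8%), compared with 9.55% of all genes. In the 250 bases before the start alone, 10 genes (32.3%) held an ISRE core and 5 (16.1%) a GAS core, beside 3.46% and 8.13% of all genes. The 23 ISRE matches included 17 before the start, 11 of them within 100 bases of it, and 2 of the 23 overlapped a GAS match.

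The stretches below show where the ISRE core lies in genes of the Ifit, Oas, ISG15 and radical-SAM families. *Ifit3*, *Ifit1* and *Oas3* were shown because they were higher in Th1 than in Th17 by the test and held a core before the start. *Isg15* and *Rsad2* were chosen after their values were seen, for the difference between their Th1 libraries. Each is 50 bases, 5′ to 3′ along the gene's strand, on GRCm38.p6, with the matches to the core, on either strand, in capitals. The positions are chr19:34583387-34583436 (plus strand) for *Ifit3*, chr19:34640784-34640833 (plus strand) for *Ifit1*, chr5:120777705-120777754 (minus strand) for *Oas3*, chr4:156200855-156200904 (minus strand) for *Isg15* and chr12:26456543-26456592 (minus strand) for *Rsad2*.
Ifit3: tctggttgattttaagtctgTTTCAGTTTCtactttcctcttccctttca
Ifit1: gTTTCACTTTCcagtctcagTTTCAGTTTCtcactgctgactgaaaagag
Oas3: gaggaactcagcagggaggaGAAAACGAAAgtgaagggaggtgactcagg
Isg15: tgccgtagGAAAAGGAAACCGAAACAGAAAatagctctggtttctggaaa
Rsad2: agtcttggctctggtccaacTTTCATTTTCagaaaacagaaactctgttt

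**Figure D1:**
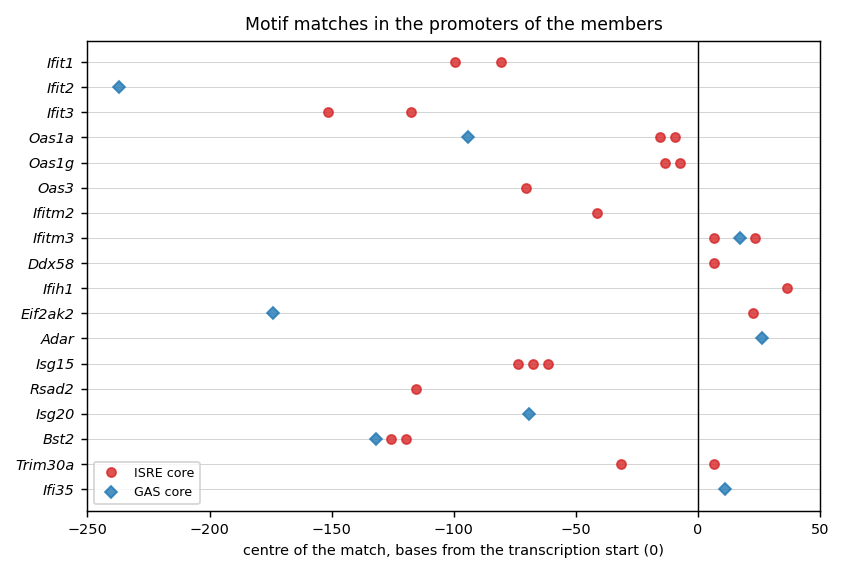
Positions of ISRE core (circles) and GAS core (diamonds) matches in the RefSeq promoters of the 18 genes with a match, as bases from the transcription start, which is at 0. Of the 23 ISRE matches, 17 lie before the start; overlapping matches appear as neighbouring points.

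*Ifit1* held 2 cores in the stretch shown and *Isg15* 3 that overlap each other, while *Ifit3* held a further core 156 bases before its start, outside the stretch. The genes lay on 14 chromosomes, and 22 of them formed 8 clusters in which neighbours were within 1 Mb. *Ifit2*, *Ifit3* and *Ifit1* lay within 99.3 kb of chromosome 19. *Oas2*, *Oas3*, *Oas1b*, *Oas1g* and *Oas1a* lay within 177.2 kb of chromosome 5, and *Ifitm2*, *Ifitm1* and *Ifitm3* within 55.9 kb of chromosome 7.

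To ask how the antiviral genes differed between the effector cells, Th1 was compared with Th17. The genes were higher in Th1: all 40 fitted log2 fold changes were above 0 (39 with library size alone, where *Samd9l* was at -0.03), with a median of 1.72, against -0.03 over all 13607 genes. A gene was called where edgeR's quasi-likelihood test gave an adjusted p-value (Benjamini-Hochberg, over all genes) below 0.01 and the log2 fold change passed 1 in either direction. By this test 12 of the 40 genes rose, beside 2.7% of all genes called higher in Th1. These were *Ifit1*, *Ifit3*, *Oas3*, *Oasl2*, *Zbp1*, *Usp18*, *Trim25*, *Dtx3l*, *Rtp4*, *Xaf1*, *Epsti1* and *Ifi44*. Called lower were 0 of 40, beside 2.83% of all genes, and a count of 0 among 40 is near that share. At an unadjusted p-value under 0.05, 31 genes were higher and 0 lower by edgeR and by DESeq2. That level is looser than the call, and no share of all genes at it is given here or below. In 32 of 40 genes both Th1 libraries lay above both Th17 libraries, beside 31.5% of all genes, and the reverse held for 0, beside 35.1% of all genes. In bulk cells, a smaller number of expressing cells and less RNA per cell cannot be told apart.

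The share of all genes called with a library left out is not given here or below. The count of called genes depended on single libraries. It was 2 without Th17 replicate 1, 4 without Th17 replicate 2, 8 without Th1 replicate 1 and 22 without Th1 replicate 2, and *Epsti1* and *Ifi44* were the 2 called without Th17 replicate 1. *Dtx3l*, *Oas3*, *Trim25* and *Xaf1* were not called without Th1 replicate 1, nor *Trim25* without Th1 replicate 2. The median log2 fold change was 0.91 without Th1 replicate 1.

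Compared with Naive, the genes differed less. The median log2 fold change of Th1 was 0.92 (-0.02 over all genes), and 33 of 40 values were above 0 (31 with library size alone). Th1 was higher by the test in 7 of 40 genes, *Ifitm1*, *Ifitm3*, *Zbp1*, *Parp9*, *Dtx3l*, *Epsti1* and *Ifi44*, beside 4.64% of all genes. No gene of the list was called lower by edgeR (0 of 40, beside 2.81% of all genes), and a count of 0 among 40 is near that share. DESeq2 called 0 of 41 lower, without a share of all genes given here. *Oas1a* was the 1 gene lower at an unadjusted p-value under 0.05 with either tool. Without Th1 replicate 1 the median turned to -0.15 and 3 genes were called, *Ifitm1*, *Epsti1* and *Ifi44*. Without Th1 replicate 2 there were 14 called genes, and without Th17 replicate 1 there were 4. *Dtx3l* was called against Naive only with all 6 libraries. Libraries did not overlap in 16 genes with Th1 higher, beside 27.6% of all genes, and in *Oas1a* and *Oas2* with Th1 lower (2 of 40), beside 28.4% of all genes.

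In Th17, most of the genes lay below Naive. The median log2 fold change was -1.01 (-0.02 over all genes), and 4 of 40 values were above 0, those of *Ifitm1*, *Ifitm2*, *Ifitm3* and *Parp9*. The test called 6 genes lower, *Ifit3*, *Oasl1*, *Oasl2*, *Usp18*, *Rtp4* and *Ifi44*, beside 1.43% of all genes, and 1 gene higher, *Ifitm1*, beside 4.01% of all genes. A count of 1 higher among 40 genes is near that share. Both Th17 libraries lay below both Naive libraries in 31 of 40 genes, beside 33.1% of all genes. They lay above in *Ifitm1*, *Ifitm2*, *Ifitm3* and *Parp9* (4 of 40), beside 32.4% of all genes. The number called lower was 0 without Th17 replicate 1, 1 without Th17 replicate 2 (*Ifi44*), 2 without Naive replicate 1 (*Ifi44* and *Rtp4*), 14 without Th1 replicate 1 and 15 without Th1 replicate 2. Called higher were 2 without Naive replicate 1. The comparisons with Naive share the Naive libraries, and those of Th1 and Th17 share theirs in turn, so that the 3 sets of values are not independent. By mean level, Th1 was highest and Th17 lowest in 29 of 40 genes, Naive highest and Th17 lowest in 7, and Th1 highest and Naive lowest in 4.

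**Figure D2:**
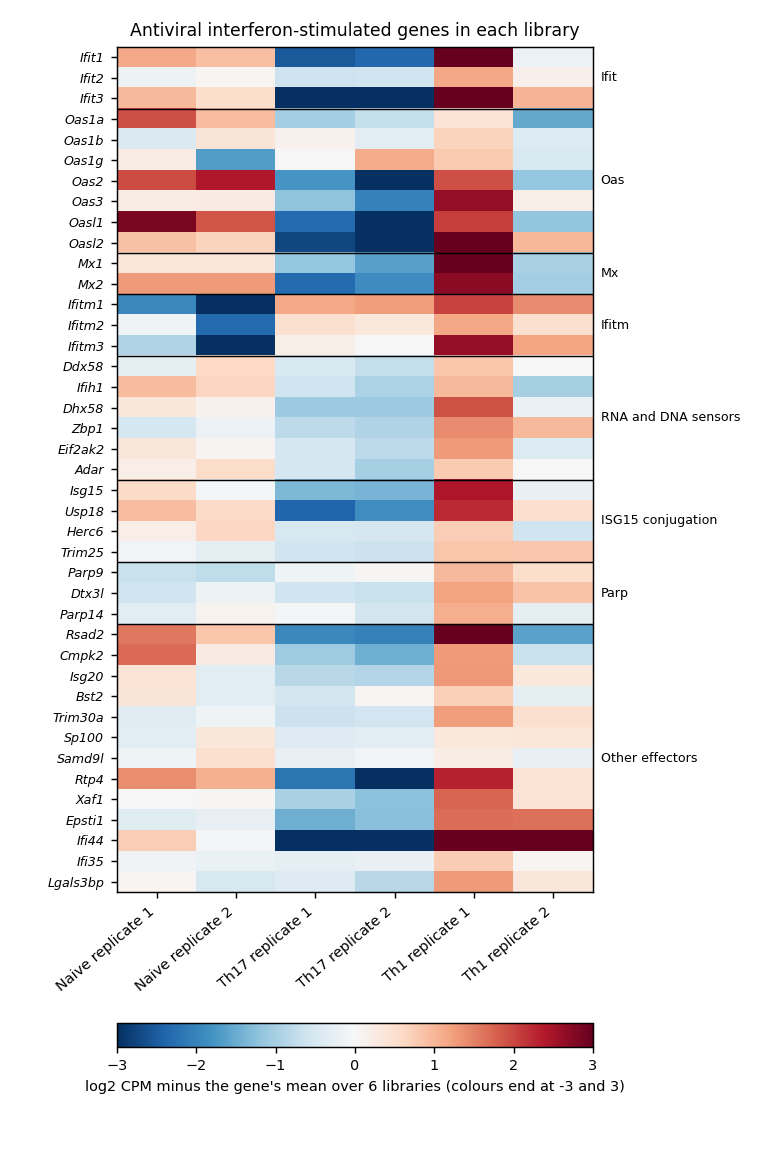
Log2 CPM (prior count 2) of each gene in each library minus the gene's mean over the 6 libraries, by subfamily, with red above and blue below the mean. Th17 is blue and Th1 replicate 1 red for most rows, Th1 replicate 2 is paler than replicate 1, and the Ifitm rows are blue in Naive.

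**Figure D3:**
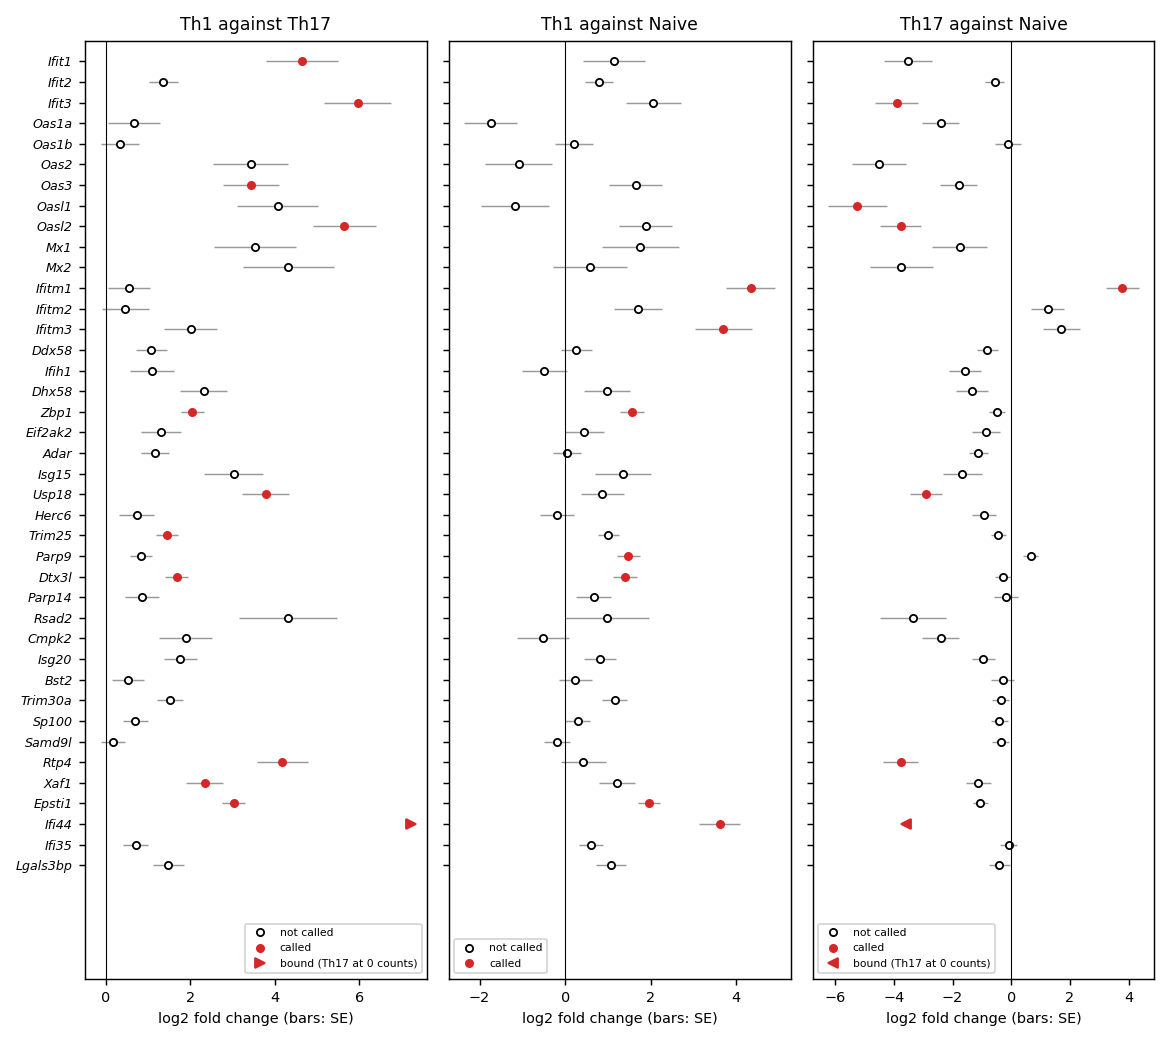
Fitted log2 fold change (x axis) with its SE for the 40 genes tested in each comparison; filled points were called by edgeR. All 40 values of Th1 against Th17 are above 0 (39 with library size alone), and the triangles mark the bounds for *Ifi44*, which had 0 counts in Th17.

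The Ifit proteins bind viral RNA that lacks the host's cap methylation. *Ifit3* was at 14.6 and 10.8 CPM in Naive, 0.887 and 0.792 CPM in Th17, and 90.9 and 15.2 CPM in Th1. The 3 cell types did not overlap, with Th1 above Naive and Naive above Th17. *Ifit3* was higher in Th1 than in Th17 by 5.97 on the log2 scale (SE 0.79, adjusted p-value 0.0014) and fell by 3.90 from Naive to Th17 (SE 0.74, adjusted p-value 0.0078). Compared with Naive, Th1 differed by 2.06 (SE 0.64, adjusted p-value 0.055), which was not called.

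*Ifit1* was at 19.8 and 16.7 CPM in Naive, 1.53 and 1.70 CPM in Th17, and 72.2 and 7.96 CPM in Th1. Its Th1 libraries lay on either side of the Naive libraries, and all 4 lay above Th17. The log2 fold change of Th1 against Th17 was 4.65 (SE 0.85, adjusted p-value 0.0066). *Ifit2*, at 54.5 and 62.4, 39.1 and 39.6, and 135 and 66.6 CPM in Naive, Th17 and Th1, showed the same order with smaller differences, and its log2 fold change of 1.36 (SE 0.34, adjusted p-value 0.025) was not called. Of the 150-base windows of *Ifit3* transcripts, the read length, 18.5% also occur in *Ifit3b*, so that reads may be lost or shared between these 2 genes.

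The Oas enzymes make 2′-5′ oligoadenylates that activate RNase L, and the Oas-like genes *Oasl1* and *Oasl2* belong to the same family. *Oas3* was at 30.3 and 30.8 CPM in Naive, 11.2 and 6.34 CPM in Th17, and 162 and 29.4 CPM in Th1. Th1 replicate 1 was the high library, and Th1 replicate 2 was at the level of Naive. The log2 fold change of Th1 against Th17 was 3.44 (SE 0.67, adjusted p-value 0.0088).

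*Oasl2* was at 10.6 and 9.11 CPM in Naive, 0.826 and 0.566 CPM in Th17, and 61.1 and 11.5 CPM in Th1. As for *Ifit3*, the 3 cell types did not overlap. It was higher in Th1 than in Th17 by 5.65 on the log2 scale (SE 0.76, adjusted p-value 0.0015), and Th17 fell by 3.77 from Naive (SE 0.71, adjusted p-value 0.0076).

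*Oasl1*, which restrains the translation of *Irf7*, was at 14.8 and 7.67 CPM in Naive, 0.367 and 0.170 CPM in Th17, and 8.88 and 0.885 CPM in Th1. It was highest in Naive on average, and Th17 fell by 5.24 from Naive (SE 1.0, adjusted p-value 0.008). Its difference between Th1 and Th17, 4.07 (SE 0.96, adjusted p-value 0.021), was not called.

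Among the other Oas genes, *Oas1a* was at 15.8 and 7.82 CPM in Naive and at 1.39 to 5.49 CPM in the 4 cultured libraries, so that Naive lay apart from both effector types. *Oas2* was at 13.5 and 18.4 CPM in Naive, 0.979 and 0.283 CPM in Th17, and 13.2 and 1.52 CPM in Th1. Its log2 fold change of -4.52 from Naive to Th17 (SE 0.92, adjusted p-value 0.011) lay just outside the threshold. *Oas1b* overlapped between the 3 cell types, at 8.53 to 18.4 CPM, and is a defective gene in C57BL/6 mice. *Oas1a* and *Oas1g* share 563 of these 150-base windows, 32.4% of those of *Oas1a*, so that the low counts of *Oas1g* are uncertain.

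The Mx proteins trap viral nucleoproteins, and both genes are annotated by RefSeq as transcribed pseudogenes in this strain's reference. *Mx1* was at 3.77 and 3.76 CPM in Naive, 1.27 and 0.905 CPM in Th17, and 23.8 and 1.45 CPM in Th1. *Mx2* was lower, at 2.44 and 2.43, 0.153 and 0.226, and 6.59 and 0.442 CPM. For both, Th1 replicate 1 was above and Th1 replicate 2 below the Naive libraries, and the log2 fold changes of Th1 against Th17 of 3.52 (SE 0.98, adjusted p-value 0.037) and 4.32 (SE 1.08, adjusted p-value 0.025) were not called.

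The Ifitm proteins are small membrane proteins that hinder the fusion of enveloped viruses, and they followed another order. *Ifitm1* was at 15.2 and 3.76 CPM in Naive, 128 and 139 CPM in Th17, and 236 and 156 CPM in Th1. Naive was the low cell type, without overlap, and Th1 was above Th17 by less than the test could call. Th1 rose from Naive by 4.34 (SE 0.57, adjusted p-value 0.001) and Th17 by 3.78 (SE 0.56, adjusted p-value 0.0022), and *Ifitm1* was called in both comparisons whichever library was left out.

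*Ifitm3* was at 24.3 and 5.30 CPM in Naive, 51.4 and 46.0 CPM in Th17, and 286 and 105 CPM in Th1, and rose in Th1 from Naive by 3.70 (SE 0.68, adjusted p-value 0.0053). *Ifitm2* was at 94.97 and 20.6, 146 and 129, and 231 and 145 CPM, and none of its comparisons was called. By mean level the order of the cell types was the same for all 3 genes, although the Th17 and Th1 libraries of *Ifitm2* overlapped. Per kilobase of exon, *Ifitm3* and *Ifitm2* had the highest mean levels of the list in Th1, at 288.1 and 287.6 CPM per kb, followed by *Ifitm1* at 179 and *Epsti1* at 171 CPM per kb. The level of *Ifitm2* is uncertain, since 23.5% of its 150-base windows also occur in *Gm45717*, whose exons overlap it on the same strand.

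Within Naive, the 3 Ifitm genes were higher in replicate 1 than in replicate 2, by 2.00 for *Ifitm1*, 2.19 for *Ifitm3* and 2.199 for *Ifitm2* on the log2 scale. The erythroid markers moved with them: the summed level of the 7 markers was 763 CPM in Naive replicate 1, 126 CPM in Naive replicate 2 and 0.913 to 2.09 CPM in the other 4 libraries. The 3 globin genes of that list were at 0 in every library, and the sum came mainly from *Car1* (463 and 85.8 CPM in Naive) and *Aqp1* (288 and 39.0 CPM). Other lists were also higher in Naive replicate 1 than in replicate 2. These were the neutrophil (310 and 189 CPM), macrophage and dendritic cell (46.2 and 21.9 CPM) and B cell markers (12.3 and 7.03 CPM). Those of plasmacytoid dendritic cells (12.6 and 15.6 CPM) and of CD8 T cells and NK cells (44.4 and 46.1 CPM) were not. The part of any of these cells in the Ifitm values was not tested. Without Naive replicate 1, *Ifitm1* and *Ifitm3* were still called higher in Th1 than in Naive.

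The sensors bind viral nucleic acid in the cytosol. *Zbp1*, which binds left-handed double helices and can start necroptosis, was at 66.9 and 85.2 CPM in Naive, 56.5 and 52.1 CPM in Th17, and 258 and 191 CPM in Th1. Both Th1 libraries stood above the other 4. It was higher in Th1 than in Th17 by 2.05 (SE 0.28, adjusted p-value 0.0016) and than in Naive by 1.56 (SE 0.28, adjusted p-value 0.0044).

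The RNA helicases *Ddx58* (RIG-I), *Ifih1* (MDA5) and *Dhx58* (LGP2), the kinase *Eif2ak2* (PKR) and the editing enzyme *Adar* were higher in Th1 than in Th17 by 1.07 to 2.32 on the log2 scale, and none was called. *Dhx58* had the largest value, at 9.49 and 9.50 CPM in Th17 and 76.5 and 17.7 CPM in Th1 (SE 0.56, adjusted p-value 0.022). Compared with Naive, the 5 genes differed in Th1 by -0.49 to 0.98. *Ifih1* was at 33.4 and 27.1 CPM in Naive and at 34.2 and 8.60 CPM in Th1.

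ISG15 is attached to other proteins by ligases such as HERC6 and removed by USP18, which also binds the type I interferon receptor and damps its signal. *Usp18* was at 17.8 and 14.1 CPM in Naive, 1.76 and 2.55 CPM in Th17, and 44.6 and 13.4 CPM in Th1. Th17 was the low cell type, and the Th1 libraries lay on either side of Naive. The log2 fold change was 3.78 between Th1 and Th17 (SE 0.57, adjusted p-value 0.0025), and Th17 fell by 2.91 from Naive (SE 0.55, adjusted p-value 0.0076).

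*Isg15* itself was at 18.2 and 11.7 CPM in Naive, 4.77 and 4.64 CPM in Th17, and 65.9 and 10.4 CPM in Th1, and its difference of 3.03 between Th1 and Th17 (SE 0.70, adjusted p-value 0.019) was not called. *Trim25*, the ubiquitin ligase that activates RIG-I, was at 135 and 117 CPM in Naive, 94.8 and 91.0 CPM in Th17, and 253 and 252 CPM in Th1. Its Th1 libraries were level with each other, and it was higher in Th1 than in Th17 by 1.45 (SE 0.25, adjusted p-value 0.0054). *Herc6* overlapped between Th1 and Th17 and was not called.

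*Parp9* and *Dtx3l* encode the partners of a complex that modifies histones and ubiquitin, and *Parp14* a related ADP-ribosyltransferase. *Dtx3l* was at 78.8 and 107 CPM in Naive, 78.7 and 74.8 CPM in Th17, and 275 and 215 CPM in Th1. Th1 was above the other 4 libraries. It rose by 1.68 against Th17 (SE 0.28, adjusted p-value 0.0044) and by 1.40 against Naive (SE 0.28, adjusted p-value 0.0078).

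*Parp9* was at 71.3 and 66.7 CPM in Naive, 102 and 115 CPM in Th17, and 222 and 162 CPM in Th1. It was the only gene outside the Ifitm family with both Th17 libraries above Naive. Th1 was higher than Naive by 1.48 (SE 0.27, adjusted p-value 0.0051), while its difference of 0.82 from Th17 (SE 0.27, adjusted p-value 0.060) was not called. The exons of *Parp9* and *Dtx3l* overlap on opposite strands, and reads from the shared stretch cannot be told apart without strand. *Parp14* overlapped between Th1 and both other cell types, and was not called.

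Among the other effectors, *Epsti1*, which is induced by interferon in many cells and has no settled molecular function, was at 97.9 and 105 CPM in Naive, 45.1 and 52.2 CPM in Th17, and 397 and 396 CPM in Th1. The 3 cell types were apart and the Th1 libraries level. It was higher in Th1 by 3.03 than in Th17 (SE 0.27, adjusted p-value 0.00022) and by 1.97 than in Naive (SE 0.26, adjusted p-value 0.001).

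*Ifi44* was at 1.64 and 0.941 CPM in Naive, 0 and 0 CPM in Th17, and 16.1 and 16.4 CPM in Th1. With a limit of 3 counts per library in Th17, Th1 was at least 151-fold higher and Naive at least 12.0-fold higher, which left the medians over the genes at 1.72 and -1.01. Between Th1 and Naive the log2 fold change was 3.62 (SE 0.48, adjusted p-value 0.0015). It and *Epsti1* were called in Th1 against both other cell types whichever library was left out.

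*Rtp4*, a chaperone of receptors that also binds viral RNA, was at 37.7 and 30.2 CPM in Naive, 3.14 and 1.75 CPM in Th17, and 71.6 and 19.3 CPM in Th1. Th17 was low, and the Th1 libraries lay on either side of Naive. It was higher in Th1 than in Th17 by 4.18 (SE 0.60, adjusted p-value 0.0021) and fell by 3.76 from Naive to Th17 (SE 0.59, adjusted p-value 0.0031).

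*Xaf1*, a partner of the apoptosis inhibitor XIAP, was at 16.8 and 17.0 CPM in Naive, 8.48 and 7.01 CPM in Th17, and 56.3 and 22.1 CPM in Th1. The cell types did not overlap, and the difference of Th1 from Th17 was 2.34 (SE 0.43, adjusted p-value 0.0072). *Rsad2* (viperin), which makes a chain-terminating nucleotide, was at 6.78 and 4.01 CPM in Naive, 0.551 and 0.509 CPM in Th17, and 20.4 and 0.695 CPM in Th1. Its difference of 4.32 between Th1 and Th17 had an SE of 1.16 (adjusted p-value 0.033) and was not called.

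*Cmpk2*, the neighbour of *Rsad2*, and *Isg20*, *Bst2*, *Trim30a*, *Sp100*, *Samd9l*, *Ifi35* and *Lgals3bp* were not called in any comparison. Their log2 fold changes of Th1 against Th17 ran from 0.17 for *Samd9l* to 1.89 for *Cmpk2*. *Trim30a* came nearest to the threshold, at 61.1 and 65.1 CPM in Th17 and 228 and 133 CPM in Th1, with a log2 fold change of 1.52 (SE 0.31, adjusted p-value 0.010).

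The 2 Th1 libraries differed from each other in these genes. Replicate 1 exceeded replicate 2 in 38 of 40 genes, by a median of 1.34 on the log2 scale, against 0.02 over all 13607 genes. The median was 0.20 between the Naive libraries (0.02 over all genes) and 0.09 between the Th17 libraries (0.04 over all genes). Replicate 1 was the deeper library of every cell type, and with each library thinned to the smallest total the Th1 median was 1.34. The difference exceeded 1 in 23 of 40 genes, against 1555 of all 13607 genes.

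The largest difference between the Th1 libraries among all genes tested was that of *Rsad2*, 4.78. *Mx1* (3.99), *Mx2* (3.76), *Oasl1* (3.26), *Ifit1* (3.17) and *Oas2* (3.08) followed within the list. At the other end were *Sp100* (-0.05), *Ifi44* (-0.03), *Trim25* (0.01), *Epsti1* (0.01) and *Dtx3l* (0.35). Th1 was called higher than Th17 for *Ifi44*, *Trim25*, *Epsti1* and *Dtx3l*. The spread between replicates enters the test, so that close replicates favour a call.

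By replicate number, the order of Th1 and Naive was not the same. In replicate 1, Th1 was above Naive in 36 of 40 genes, with a median log2 difference of 1.32, and in replicate 2 in 19 of 40, with a median of -0.07. Against Th17, Th1 was higher by a median of 2.02 in replicate 1 and 0.94 in replicate 2, where 34 of 40 genes were above 0. Th17 was below Naive by similar amounts in both, with medians of -0.96 and -1.17. A replicate number was not stated to mark a shared mouse or day.

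**Figure D4:**
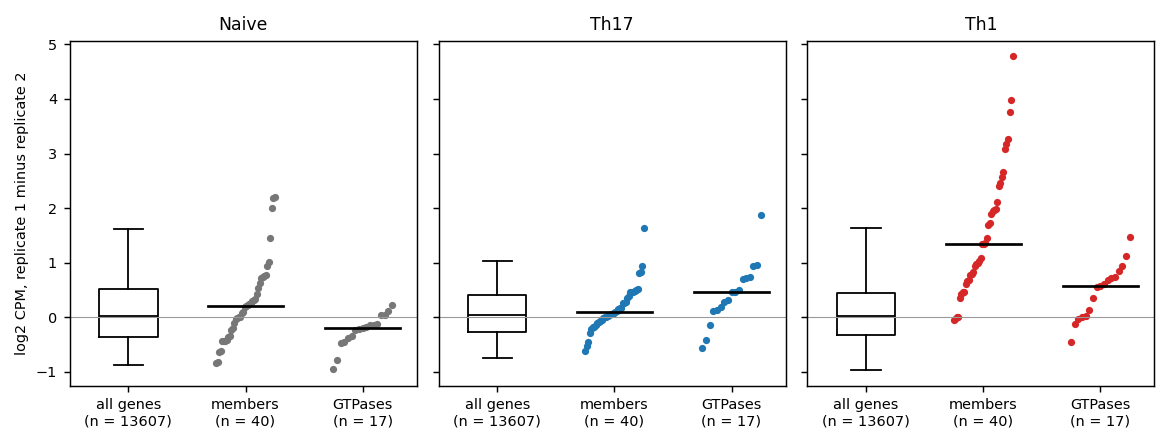
Log2 CPM of replicate 1 minus replicate 2 in Naive, Th17 and Th1, for all 13607 genes tested (box: quartiles; whiskers: the central 90%), the 40 antiviral genes and 17 interferon-inducible GTPases (points, with the median as a bar). In Th1 the antiviral genes have a median of 1.34 and the GTPases 0.58.

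Genes with an ISRE core in the RefSeq window had a median difference of 1.95 between the Th1 libraries (13 genes tested), and the 17 without had 0.79, with ranges of 0.67 to 4.78 and -0.05 to 3.26 that overlapped. The 3 called genes with a core before the start, whose stretches are shown above, differed by 3.17 (*Ifit1*), 2.58 (*Ifit3*) and 2.46 (*Oas3*). In Th1 against Th17, the medians were 1.52 with and 1.48 without a core, and 3 and 6 genes were called. These are descriptions, and no match says only that these letters were not in the window.

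The pathway above these genes was read from lists of its own. Of 15 interferon ligand genes, *Ifng* was the only 1 tested. It was at 4.55 and 4.55 CPM in Naive, 64.6 and 48.7 CPM in Th17, and 177 and 157 CPM in Th1. The cell types were apart, and Th1 was higher than Th17 by 1.56 (SE 0.26, adjusted p-value 0.0045). The type I and type III interferon genes of the list did not pass the filter on low counts.

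Of 19 receptors, kinases, transcription factors and inhibitors, 3 were called higher in Th1 than in Th17 (*Irf7*, *Irf8* and *Socs1*) and 1 lower (*Ifngr2*) by edgeR, beside 2.7% and 2.83% of all genes. Compared with Naive, 4 were called higher in Th1 (*Ifngr1*, *Irf8*, *Socs1* and *Socs3*) and 1 lower (*Ifngr2*), beside 4.64% and 2.81% of all genes. In Th17, 1 was called higher than in Naive (*Socs3*), beside 4.01% of all genes. A single call among 19 genes is near these shares. DESeq2 called 8 higher and 1 lower in Th1 against Th17, 6 higher and 1 lower in Th1 against Naive, and 2 higher and 3 lower in Th17 against Naive. The shares above are those of edgeR, and the share of all genes called by DESeq2 is not given here or below. *Socs1*, the feedback inhibitor of JAK kinases, was at 32.3 and 44.9 CPM in Naive, 80.9 and 64.1 CPM in Th17, and 209 and 312 CPM in Th1. *Ifngr2*, the signalling chain of the IFN-γ receptor, was at 35.3 and 49.7, 35.8 and 43.0, and 2.60 and 7.21 CPM, and fell in Th1 by 3.05 from Th17 (SE 0.47, adjusted p-value 0.0030).

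*Stat2* and *Irf9*, which encode factors that act on the ISRE, were not called by edgeR in any comparison. *Stat2* was at 47.1 and 64.1 CPM in Naive, 46.9 and 36.9 CPM in Th17, and 158 and 50 CPM in Th1, with a log2 fold change of 1.31 between Th1 and Th17 (SE 0.46, adjusted p-value 0.077). *Irf9* was at 114 and 116, 56.7 and 52.3, and 143 and 111 CPM, with a log2 fold change of 1.22 (SE 0.25, adjusted p-value 0.012). In Th1 the replicates of *Stat2* lay far apart, while those of *Irf9* lay closer together.

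*Irf7*, the factor that amplifies type I interferon production, was at 78.0 and 79.8 CPM in Naive, 21.8 and 17.6 CPM in Th17, and 154 and 50.2 CPM in Th1. It was higher in Th1 than in Th17 by 2.38 (SE 0.46, adjusted p-value 0.0083), and its Th1 libraries lay on either side of Naive, as for *Ifit1* and *Usp18*. *Irf1*, a transcription factor induced by IFN-γ, was at 170.0 and 211, 166 and 154, and 297 and 349 CPM, with the higher Th1 value in replicate 2, and was not called.

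**Figure D5:**
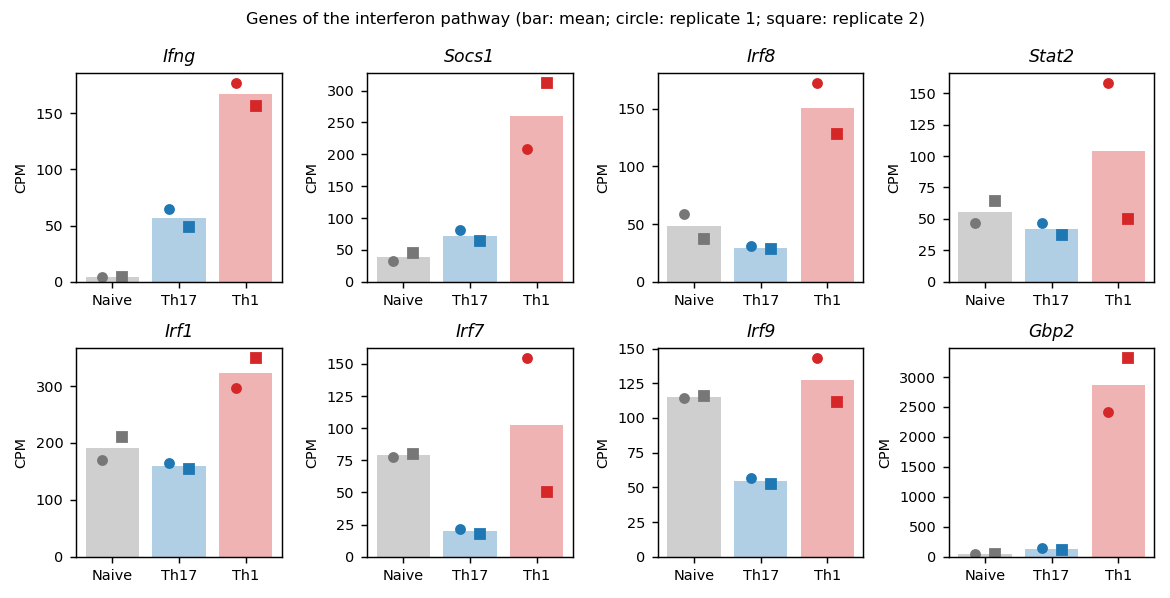
CPM (y axes from 0) of 8 genes of the interferon pathway in each library; bars are means, circles replicate 1 and squares replicate 2. In Th1, *Stat2* and *Irf7* are about 3 times as high in replicate 1 as in replicate 2, while *Ifng*, *Socs1*, *Irf1* and *Gbp2* are not.

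Of 17 interferon-inducible GTPases tested, 8 were called higher in Th1 than in Th17 by edgeR, beside 2.7% of all genes. Against Naive, 8 were called higher in Th1, beside 4.64% of all genes. The DESeq2 counts were 10 and 13, without a share of all genes called by DESeq2 to set beside them. Between Th17 and Naive, 0 were called by edgeR, beside 4.01% of all genes higher in Th17 and 1.43% lower. A count of 0 among 17 genes is near these shares. In that comparison 6 were higher and 4 lower at an unadjusted p-value under 0.05 by edgeR, and DESeq2 called 2 higher and 1 lower. Their summed level was 6253 and 6342 CPM in the Th1 libraries, and the median difference between these was 0.58. *Gbp2*, a guanylate-binding protein that coats pathogen vacuoles, was at 43.5 and 48.1 CPM in Naive, 148 and 105 CPM in Th17, and 2423 and 3315 CPM in Th1.

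Of 39 further antiviral interferon-stimulated genes tested, 8 were called higher in Th1 than in Th17 by edgeR, beside 2.7% of all genes. Against Naive, 5 were called higher in Th1, *Ly6a*, *Ifi204*, *Phf11b*, *Slfn1* and *Trim34a*, beside 4.64% of all genes, and 1 lower, *Slfn5*, beside 2.81%. In Th17, 2 were called higher than in Naive, *Ly6a* and *Ifi204*, beside 4.01% of all genes, and 1 lower, *Slfn5*, beside 1.43%, so that the counts lower in Th1 and in either direction in Th17 were near the shares over all genes. DESeq2 called 17 higher in Th1 than in Th17, 10 higher and 1 lower in Th1 than in Naive, and 3 higher and 5 lower in Th17 than in Naive. The shares in this paragraph are those of edgeR and not of DESeq2. *Slfn5*, at 91.1 and 113 CPM in Naive and 16.3 to 19.9 CPM in the 4 cultured libraries, was low in both effector types. Of 11 sensing adaptors and kinases tested, 1 was called higher in Th1 than in Naive, beside 4.64% of all genes. It was *Myd88*, by 1.28 (SE 0.25, adjusted p-value 0.0068), and a single call among 11 genes is near that share. None of the 11 was called between Th1 and Th17 by edgeR, which is near the 2.7% of all genes called higher and 2.83% lower. In that comparison 3 were higher and 1 lower at an unadjusted p-value under 0.05 by edgeR, and DESeq2 called 1 lower, *Aim2*.

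Markers of other cells also differed between the groups. The summed level of 8 neutrophil markers was 2993 and 2859 CPM in Th17, 28.2 and 40.8 CPM in Th1, and 310.4 and 189 CPM in Naive. All 8 were detected in both Th17 libraries, and edgeR called all 8 lower in Th1 than in Th17. From Naive to Th17 they did not move as 1 set. By edgeR 6 were called higher in Th17, *Elane* was not called, and *Mpo* was called lower. Its log2 fold change was -1.69 (SE 0.29, adjusted p-value 0.0047). *Mpo*, at 251 and 159 CPM, made up most of the Naive sum. Of 15 macrophage and dendritic cell markers, 14 had a row. Their summed level was 253 and 881 CPM in Th17 and 20.5 to 46.2 CPM elsewhere. In Th17 it was mostly *Lyz2* (222.5 and 762 CPM). The summed level of 8 B cell markers was 24.2 and 18.5 CPM in Th17, 2.97 and 3.29 CPM in Th1, and 12.3 and 7.03 CPM in Naive, and the 6 of them that were tested lay lower in Th1 than in Th17 without overlap. That of 7 markers of CD8 T cells and NK cells was 44.4 and 46.1 CPM in Naive, 9.84 and 7.52 CPM in Th17, and 19.0 and 23.2 CPM in Th1, with *Klra4* and *Klra8* at 0 in every library. In Th1 it was mostly *Eomes* (12.3 and 11.9 CPM) and *Cd8b1* (5.91 and 10.9 CPM), both higher than in Th17. *Klrb1c* went the other way, at 0.170 and 0.126 CPM in Th1 and 0.949 and 1.19 CPM in Th17. *Cd8a* and *Ncr1* overlapped between Th1 and Th17, so that these markers did not move as a set. The part of these cells in the values of Th17, Th1 and Naive was not tested. The 6 markers of plasmacytoid dendritic cells, the main makers of type I interferon in the body, summed to 12.6 and 15.6 CPM in Naive. This was mostly *Ccr9*, at 10.2 and 14.6 CPM, while *Siglech* was at 0.352 and 0.248 CPM. In Th17 and Th1 the sum was at most 2.32 CPM, and *Siglech* was at 0 in all 4 libraries. In Th1, the sums of the neutrophil, macrophage and plasmacytoid lists in replicate 1 were 28.2, 22.4 and 0.247 CPM, and in replicate 2 they were 40.8, 20.5 and 0.379 CPM.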

How the data were processed

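RNA-Seq counts of 6 mouse libraries were analysed. The authors aligned reads of 150 bases to mm10 with HISAT2 2.2.1 and counted them per gene with HTSeq 0.13.5, and the deposited values are whole-number raw counts without normalization. The methods state default HTSeq settings and removal of duplicates, while the supplementary code uses the reverse-stranded option and shows no removal step. Per the labels, cDNA was made by Smart-seq2, which does not keep strand.

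Genes were filtered by filterByExpr (edgeR 4.0.16, R 4.3.3) and scaled by TMM, with factors of 0.862 to 1.09. All 6 libraries entered 1 quasi-likelihood model with cell type as the only term, and a call needed an adjusted p-value (Benjamini-Hochberg) below 0.01 together with a log2 fold change past 1 in either direction. An exact two-sided permutation test of 2 libraries against 2 cannot go below 0.333 and was not used. Log2 CPM for differences between libraries used a prior count of 2. Depth covers counting error only, and a limit of 3 counts per library was used where a cell type had 0.

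The genes and lists were chosen with earlier results of these data known, so that no test over a list was made. Values are given in full for genes called in any comparison. Pathway genes named are *Stat2*, *Irf9*, *Irf1*, *Irf7*, *Ifng*, *Socs1* and those called in a direction with 5 or fewer calls, while *Gbp2*, *Aim2* and the marker genes were named after their values were seen. A further gene that the rule names is not reported here. Replicates differed by far more than sampling noise. Deviations of same-numbered libraries had correlations of 0.08 (Th1 and Th17), 0.17 (Th1 and Naive) and -0.23 (Th17 and Naive) over 13607 genes, so that the numbers were not taken as pairs. Coordinates and exon lengths came from GENCODE vM21 on GRCm38, the same assembly as mm10. Alternatives were DESeq2 1.42.0, RLE factors, library size alone, other filters, a replicate block, 4 libraries only, thinning, other thresholds and leaving out each library.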

Additional observations from a re-analysis of the deposited data

Results flagged for a closer look

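*Ifi44* was called in opposite directions in the 2 effector cell types: the log2 fold change from Naive was 3.62 in Th1 and -8.80 in Th17. The second value depends on the prior count, since both Th17 libraries had 0 counts, and its bound is a level at least 12.0-fold lower in Th17 than in Naive. The difference between the effector types was itself called, with Th1 at least 151-fold higher than Th17. Naive had 1.64 and 0.941 CPM, so that the fall in Th17 rests on low counts, and it was not called without Th17 replicate 1.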

How the results depend on the processing

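No called fold change turned sign in any setting, and the medians over the genes kept their sign except for Th1 against Naive without Th1 replicate 1. The number of called genes moved. The share of all genes called in each setting is not given, so that these counts show only how far the number moved. For Th1 above Th17 (12 genes) it was 20 with DESeq2, 7 with library size alone, 28 without a filter on low counts and 24 at an adjusted p-value under 0.05. For Th1 above Naive (7 genes) it was 3 with library size alone, 16 without the filter (with 1 lower), 3 with only the 4 libraries compared and 4 when tested against a fold change of 2. For Th17 below Naive (6 genes) it was 11 with DESeq2, 2 with library size alone, 19 without the filter (with 3 higher), 1 with at least 10 counts in every library, where the median was -0.81, 14 with only the 4 libraries compared and 13 at an adjusted p-value under 0.05. Leaving out each library in turn gave 2 to 22 genes and medians of 0.91 to 1.93 for Th1 above Th17. The same gave 3 to 14 genes and medians of -0.15 to 1.44 for Th1 above Naive, and 0 to 15 genes lower and 1 to 2 higher for Th17 against Naive. An arm left with 1 library was taken to vary like the others. With the replicate number as a block the counts were 20, 8 and 9 in the same order, and 2 genes were higher in Th17 than in Naive. The samples share only a number. With the Th17 numbers crossed, a fit chosen after seeing the data, they were 13, 7 and 7. Library size alone moved the median of all genes to -0.24 between Th1 and Th17 and to -0.26 between Th1 and Naive, and the medians of the antiviral genes were then 1.51 and 0.71. In the 250 bases before the start alone, 5 genes rather than 8 held a GAS core. The cause of these changes was not tested. The smaller libraries had 17742158 to 18608805 counts, which limits what can be said of genes near 0, such as *Ifi44* and *Mx2* in Th17.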
